A study of Mus musculus with 18 samples.

Results

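Chemokines and their receptors were followed through 18 mouse RNA-seq libraries. The members were every gene whose symbol begins with Ccl, Cxcl, Xcl, Cx3cl, Ccr, Cxcr, Xcr, Cx3cr or Ackr and a digit, together with Pf4 and Ppbp, which encode platelet chemokines of the CXC family. This naming rule used no measured value, although the family was picked with earlier results of these data known. It found 65 of the 55401 genes of the endothelial table and 70 of the 22612 lines of the tumour cell table, where 5 symbols stood on several lines, so that these lines carried 64 symbols. Of the 12 endothelial libraries, 3 each came from blood vessel endothelial cells of normal mammary fat pads (BEC normal), blood vessel endothelial cells of primary EO771 tumours (BEC tumour), high endothelial cells of normal lymph nodes (HEC normal) and high endothelial cells whose tissue the labels give as lymph node metastases (HEC tumour). EO771 is a mouse breast carcinoma line. The mice were wild-type C57BL/6 females, obtained at 5 to 6 weeks of age. The cells were sorted for absence of CD45, a leukocyte surface protein, and for high CD31, and peripheral node addressin (PNAd), the sugar epitope of high endothelial venules, separated HECs from BECs. HECs and BECs came from different organs, so cell type and organ cannot be told apart. BEC normal and BEC tumour came from different tissues, so for BECs tumour state and tissue cannot be told apart either. The other 6 libraries were cultured EO771 cells, a single line, given vehicle (DMSO in saline; 3 libraries) or 100 nM 12-HETE for 48 h (3 libraries). 12-HETE is the lipid that arachidonate 12-lipoxygenase makes from arachidonic acid. The study gives its endothelial and EO771 RNA-seq as independent experiments, without saying how many animals went into each library, so the p-values measure the spread between these libraries. The 12-HETE libraries were more alike than the vehicle libraries. The mean chi-square per gene between libraries, relative to counting error, was 2.54 to 2.92 with 12-HETE and 18.3 to 51.9 with vehicle. Whether the 12-HETE libraries came from separate cultures was not tested.

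Chemokines are small secreted proteins that direct cell migration through G protein-coupled receptors on the responding cell. Endothelial cells hold them on heparan sulphate at the vessel wall, where they arrest rolling leukocytes. High endothelial venules are the classical site, presenting CCL21, CCL19, CXCL12 and CXCL13 to lymphocytes that enter the node. Atypical receptors bind chemokines without G protein signalling: ACKR3 clears CXCL12 and CXCL11, and ACKR1 carries inflammatory chemokines across venules.

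Deposited totals were 56.4 to 79.4 M per endothelial library and 17.3 to 18.6 M per EO771 library. Low endothelial values rose in steps of about 3.73, so 1 unit of that table was not 1 fragment, and a fragment below means 1 such step. A list of 10 endothelial genes summed to 2634 to 3909 CPM (counts scaled to library size) in all 12 libraries. Glycam1, a mucin of high endothelial venules, was 0 in the BEC libraries and 39130 to 71580 normalised counts in the HEC libraries. Chst4, the sulphotransferase that completes PNAd, was 0 in BECs and at 4.07 normalised counts in HEC normal library 2, against 19910 and 20210 in the other HEC normal libraries. Fut7, a fucosyltransferase of the same pathway, was 14260 in HEC tumour library 3, against 66480 and 65520. Madcam1 was at 0 in HEC normal, and the tight junction gene Cldn5 was 15830 to 19540 in BEC normal and at most 136.7 in the other endothelial groups. Markers of other cells differed most in BEC tumour: the 8 myeloid genes summed to 1492 to 2005 CPM there, against 107.6 to 128.9 in BEC normal, 483.9 to 508.6 in HEC normal and 355.7 to 373.7 in HEC tumour. Aif1 and Fcgr1 of this list were at 0 in HEC normal. Against BEC normal, only Cd68 of the list was called higher in HEC normal (log2 fold change 2.15 ± 0.06) and 3 genes were lower. In these bulk samples, fewer cells of a type and less RNA per cell cannot be told apart.

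Of the 65 members in the endothelial table, 9 were at 0 in every library, 21 had values but a mean under 10 over the libraries and were not tested, and 35 were tested. Because that mean ran over all groups, a member near 0 in most groups could be tested through 1 group alone. Its direction against that group was then set by the filter. Per length, members summed to 2257 to 2451 TPM (counts scaled to transcript length and library size) in BEC normal, 1972 to 1988 in BEC tumour, 2179 to 2404 in HEC normal and 2423 to 2432 in HEC tumour. Most of that sum came from few genes. Ccl2, the main monocyte attractant, led BEC normal at 1033 ± 43.6 TPM (SD, n = 3, as for all means below), followed by its neighbour Ccl7 at 368.9 ± 32.2 and the neutrophil attractant Cxcl1 at 324.1 ± 10.3. The atypical receptor Ackr3, at 124.0 ± 1.61 TPM, came next. In BEC tumour the order was Ccl2 (795.1 ± 38.3 TPM), the T cell and monocyte attractant Ccl5 (297.6 ± 28.2 TPM) and Cxcl1 (205.3 ± 12.8 TPM). In HEC normal, Ccl5 (735.2 ± 43.2 TPM) and the interferon-induced CXCR3 ligand Cxcl10 (636.9 ± 28.2 TPM) stood above Ccl2 (439.2 ± 29.1 TPM). In HEC tumour, Ccl2 (672.6 ± 17.7 TPM) stood above Cxcl10 (580.1 ± 5.58 TPM) and Ccl5 (529.1 ± 20.3 TPM). The lymphoid chemokines for which high endothelial venules are known were not among them. Ccl21a, Ccl21b, Ccl19 and Cxcl13 were at 0 in all 6 HEC libraries, which at this depth allows up to 3 fragments per group, whereas Cxcl12 was at 67.96 ± 2.38 TPM in HEC normal and 91.35 ± 3.21 TPM in HEC tumour. Of the Ccl21a transcript, 61.3% of 75-base windows were shared with copies such as Ccl21b, and of Ccl19 45.3%, so the values of these genes are uncertain. Ackr1 had no count in BEC normal or HEC normal and 1 fragment in HEC tumour.

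**Figure D1:**
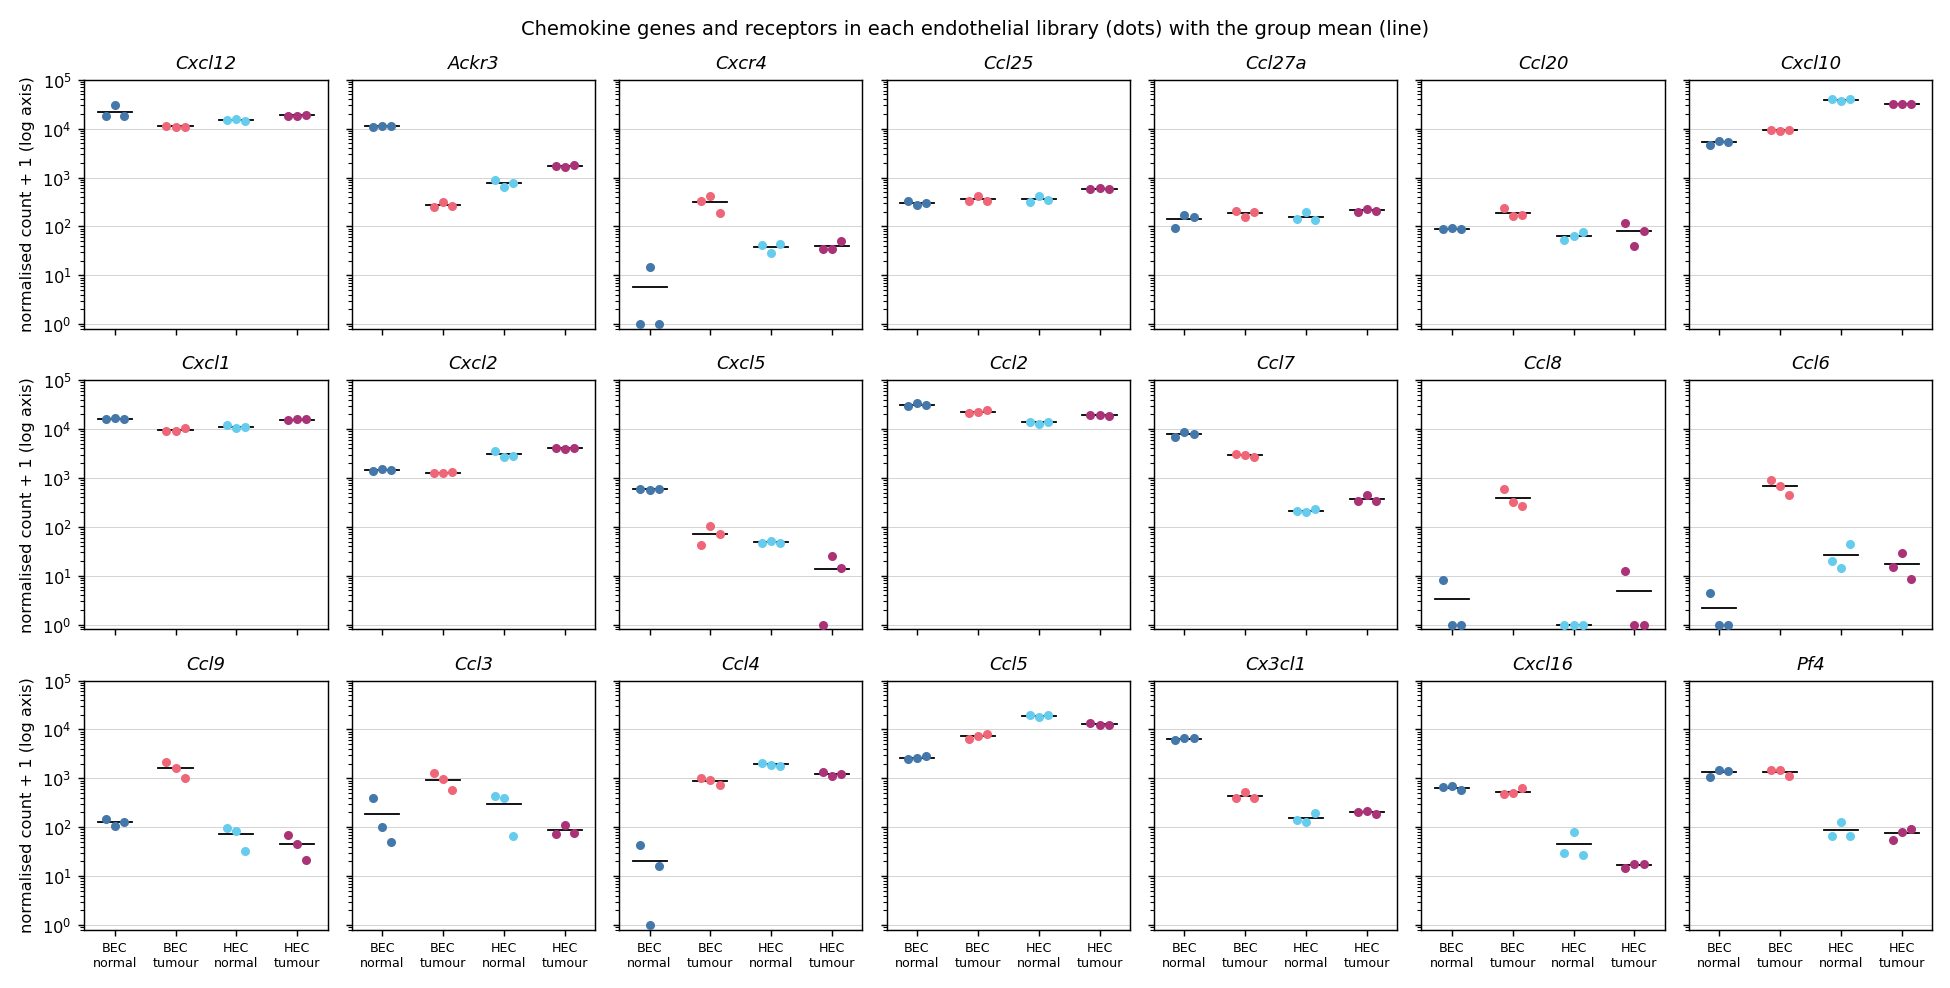
Normalised counts plus 1 on a log axis for the 21 members with a group mean of at least 100 in any endothelial group. Dots are the 3 libraries of each group and lines are group means; Ackr3 spans 243 to 11227 normalised counts across the groups, while Ccl25 stays between 274 and 608.

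Normal HECs and normal BECs differed in which leukocyte attractants they expressed. Of the 35 members tested, 8 were higher and 9 lower in HEC normal, at an adjusted p under 0.05 and a fold over 2. Over all 18511 genes tested, 17.1% were called higher and 15.1% lower. The median log2 fold change was -0.53 over the members and 0.0046 over all genes. Fibroblast markers also differed, at 240.9 to 253.2 CPM in BEC normal and 22.9 to 24.7 in HEC normal, with 4 of the 5 genes tested called lower in HECs (Col1a1 at a log2 fold change of -7.44 ± 0.62). Of the 8 myeloid genes 1 was called higher and 3 lower, and of the 5 neutrophil genes tested 2 were higher. Their part in the member differences was not tested.

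Among the CXCR3 ligands, which attract activated T cells, Cxcl10 measured 39561, 37387 and 40210.5 normalised counts in HEC normal and 4725, 5564 and 5355 in BEC normal. Its log2 fold change was 2.91 ± 0.06 (SE), a 7.49-fold higher level. Cxcl9 was also called, on 6 fragments in HEC normal and 0 in BEC normal, which is at least 1.99-fold. The inflammatory CC chemokines went both ways, with 3 of 9 tested called higher and 2 lower. Ccl5 was 19493, 18094 and 20061 normalised counts in HEC normal and 2445, 2556 and 2896 in BEC normal, 7.30-fold higher (log2 fold change 2.87 ± 0.10, adjusted p = 1.09e-186). Ccl4 was 2064, 1913 and 1794 in HEC normal against 42.3, 0 and 15.2 in BEC normal, a 99.1-fold difference (log2 fold change 6.63 ± 0.78, adjusted p = 1.36e-16). All 3 HEC normal libraries were therefore above every BEC normal library for both genes. Ccl6 was 19.7-fold higher on 20 fragments against 1 (95% counting interval 3.15 to 816).

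Ccl7 went the other way, at 6960, 8720 and 7964 normalised counts in BEC normal and 209, 199 and 230 in HEC normal, a 37.0-fold lower level (log2 fold change -5.21 ± 0.14). Ccl2, which lies next to it on chromosome 11, was only 2.30-fold lower (log2 fold change -1.20 ± 0.08, adjusted p = 1.36e-55). Both chemokines made as membrane proteins were lower in HECs. Cx3cl1 (fractalkine), the ligand of CX3CR1 on monocytes and cytotoxic lymphocytes, was 6070, 6519 and 6628 normalised counts in BEC normal and 137, 128 and 193 in HEC normal, a 41.9-fold difference (log2 fold change -5.39 ± 0.17, adjusted p = 3.12e-212). Cxcl16, the ligand of CXCR6, was 14.8-fold lower (log2 fold change -3.88 ± 0.37), and 15.4% of its transcript windows overlapped Zmynd15 on the opposite strand. Ackr3 was 10800, 11134 and 11227 normalised counts in BEC normal against 884, 638 and 755 in HEC normal, 14.6-fold lower (log2 fold change -3.86 ± 0.12, adjusted p = 1.3e-209). Pf4 was 15.4-fold and Cxcl5, a CXCR2 ligand, 12.4-fold lower, while Cxcl2, another CXCR2 ligand, was 2.12-fold higher. Cxcl15 was at 0 in both BEC groups and at 45.6, 76.3 and 83.1 normalised counts in HEC normal, at least 18.3-fold higher. Cxcl12 did not pass the fold threshold (log2 fold change -0.56 ± 0.17). Cxcr4, its signalling receptor, was 9.85-fold higher in HEC normal on 30 fragments against 3 (interval 3.06 to 50.4). Ccl28 and Ccl17, of the homeostatic chemokines, were at least 15.8-fold and 12.2-fold lower (interval of Ccl17 3.03 to 106). The Cxcl2 call ended without HEC normal library 1 (log2 fold change 0.95) and the Cxcr4 call in a fit of the compared groups alone (adjusted p = 0.0808).

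Compared with BEC normal, Ackr3 and Cx3cl1 were lower in BEC tumour and 6 of the 9 inflammatory CC chemokines tested were higher, while Ccl7 was lower and Ccl2, the most abundant member, had a log2 fold change of -0.47 ± 0.08. BEC tumour had 11 members higher and 7 lower than BEC normal, where 12.4% and 10.8% of all genes were called. The higher members include some, such as Ccl21a, that were tested only through their values in BEC tumour. The median log2 fold change was 0.26 over the members and 0.0083 over all genes.

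Ackr3 (chr1:90203980-90216751, GRCm38) was 10800, 11134 and 11227 normalised counts in BEC normal and 243, 311 and 258 in BEC tumour, 40.8-fold lower (log2 fold change -5.35 ± 0.13). Cxcl12, the chemokine that ACKR3 clears, was 2.02-fold lower (log2 fold change -1.01 ± 0.17, adjusted p = 6.56e-09), from 18279, 30545 and 18183 to 11522, 10840 and 10818 normalised counts. Without BEC normal library 2 the log2 fold change was -0.73, and under edgeR it was -0.98, both under the fold threshold. Cx3cl1 was 386, 533 and 397 normalised counts in BEC tumour, 14.6-fold lower than in BEC normal (log2 fold change -3.87 ± 0.16, adjusted p = 3.16e-122). Cxcl16 did not share this (-0.27 ± 0.34). Cxcl5 fell 8.36-fold and Ccl7 fell 2.71-fold, with no overlap of the groups. Cxcl3 fell on 3 fragments against 19, and Cxcl11, whose exons overlap an opposite-strand gene along 39.8% of its windows, on 1 against 16. Cxcl11 is annotated as a polymorphic pseudogene.

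Ccl5 rose in BEC tumour to 6356, 7182 and 7964 normalised counts, 2.72-fold (log2 fold change 1.45 ± 0.10, adjusted p = 1.34e-47), and was highest in library 3. Ccl6, Ccl9, Ccl3, Ccl4 and Ccl8 were instead highest in library 1 and lowest in library 3. Ccl6 was 886, 677 and 438 normalised counts in BEC tumour libraries 1, 2 and 3, from 605 fragments against 1 in BEC normal (527-fold, interval 94.2 to 20850). Ccl9, a CCR1 ligand, was 2139.9, 1651 and 1030.5, 12.8-fold higher (log2 fold change 3.68 ± 0.44, adjusted p = 7.55e-16). Ccl3 and Ccl4 were 1261, 962 and 577 and 1005, 941 and 738, with log2 fold changes of 2.35 ± 0.71 and 5.53 ± 0.78. Ccl8 was 579, 328 and 265 on 353 fragments against 2 (154-fold, interval 42.3 to 1275). Leaving out any of the 3 BEC tumour libraries ended that call, at adjusted p between 0.136 and 0.177. Ccr1, the receptor of several of these ligands, was 125, 132 and 25.3 normalised counts and 14.9-fold higher, and Cxcr4 was 335, 426 and 184, 83.9-fold higher on 289 fragments against 3 (interval 28.4 to 409). Ccl20, the CCR6 ligand, was 238, 165 and 167 normalised counts, 2.17-fold higher, and was no longer called without BEC tumour library 1 (adjusted p = 0.0699). Cxcl9 and Ccl21a, at 0 in BEC normal, were at least 3.90-fold and 10.1-fold higher.

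Myeloid, pan-leukocyte and T cell, B cell, neutrophil and epithelial marker lists also summed higher in BEC tumour than in BEC normal. The dendritic cell list summed lower, at 15.38 to 16.81 CPM in BEC tumour and 22.41 to 25.35 in BEC normal. Its genes went both ways, with 1 of the 3 tested called higher and 1 lower. All 8 genes of the myeloid list were called higher in BEC tumour than in BEC normal. The pan-leukocyte gene Ptprc, which encodes the CD45 used to exclude leukocytes in the sort, was 855, 728 and 401 normalised counts in BEC tumour libraries 1, 2 and 3 and 8.24 to 24.7 in BEC normal. The macrophage gene Adgre1 was 2515, 1849 and 1005, and Csf1r was 3991, 3423 and 1865, again highest in library 1 and lowest in library 3. The pan-leukocyte and T cell list of 9 genes summed to 34.7 to 60.3 CPM in BEC tumour and 4.33 to 4.95 in BEC normal, with 5 of its genes, among them Cd3e and Cd8a, at 0 in BEC normal. The B cell list (4 genes) was 2.68 to 3.73 against 0 to 0.246 CPM and the neutrophil list (6 genes) 8.51 to 18.4 against 0.101 to 0.262 CPM. The fibroblast list (6 genes) ran the other way, at 38.0 to 68.3 CPM in BEC tumour and 240.9 to 253.2 in BEC normal. The epithelial list (5 genes) was 14.3, 18.1 and 84.3 CPM in BEC tumour libraries 1, 2 and 3 and 3.61 to 6.93 in BEC normal, with 4 genes called higher, among them Krt8 (log2 fold change 7.18 ± 1.45) and Cdh1 (4.78 ± 0.92). The epithelial list was highest in library 3. The part of these cells in the chemokine differences was not tested.

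**Figure D2:**
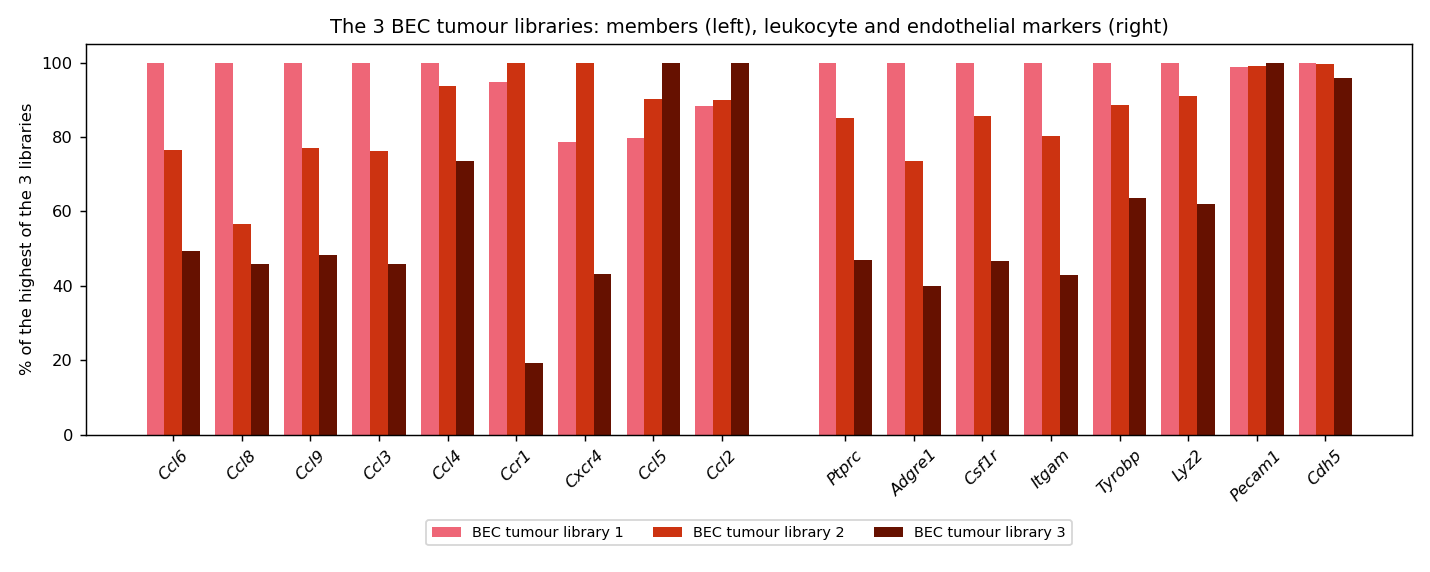
Normalised counts in the 3 BEC tumour libraries, each as a percentage of the highest of the 3, for 9 members and for 6 leukocyte and 2 endothelial marker genes. Ccl6, Ccl8, Ccl9, Ccl3 and Ccl4 are highest in library 1 and lowest in library 3, as are Ptprc, Adgre1 and Csf1r, whereas Ccl5 is highest in library 3 and Pecam1 and Cdh5 are nearly level.

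In HEC tumour most of these CC chemokines were lower than in BEC tumour. HEC tumour had 7 members higher and 16 lower than BEC tumour, where 11.2% and 10.7% of all genes were called. The lower members include some, such as Ccl21a, that were tested only through their values in BEC tumour. The median log2 fold change was -0.90 over the members and 0.0060 over all genes. The 8 myeloid marker genes were all called lower in HEC tumour as well, as were 4 of the 5 epithelial genes and 4 of the 5 fibroblast genes tested, and their part was not tested.

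Ccl9 was 67.0, 43.4 and 19.9 normalised counts in HEC tumour, 37.0-fold below BEC tumour (log2 fold change -5.21 ± 0.46, adjusted p = 4.8e-29). Ccl6 was 39.6-fold and Ccl3 10.97-fold lower, and Ccr1 was 23.4-fold lower on 3 fragments against 86 (interval 7.75 to 116). Ccl4 was not among them: it was 1336, 1099 and 1216 normalised counts in HEC tumour and 1005, 941 and 738 in BEC tumour, with a log2 fold change of 0.44 ± 0.76. The platelet chemokine gene Pf4 was 18.5-fold, Cxcl16 33.99-fold, Ccl7 7.70-fold, Cxcr4 8.17-fold and Cxcl5 5.47-fold lower. Of 8 platelet marker genes, 4 were tested and 3 of them were also called lower, Gp9 (log2 fold change -1.34 ± 0.40), Gp1ba (-1.19 ± 0.37) and Clec1b (-5.14 ± 1.77), while Itga2b had a log2 fold change of 0.82 ± 0.13. The list summed to 10.4 to 11.2 CPM in BEC tumour and 12.0 to 13.2 in HEC tumour, and its part in the Pf4 difference was not tested. Cx3cl1 was 2.17-fold lower, a smaller gap than between the normal cells, and without BEC tumour library 2 it was under the fold threshold (log2 fold change -0.96). Ccl21a was 25.0, 27.9 and 60.2 normalised counts in BEC tumour and 0 in the other endothelial groups. Ccl8, Cxcl14, Ccl28, Cx3cr1 and Ccl20 completed the 16 lower members. The Ccl8 call was lost when any 1 of 6 libraries was left out (adjusted p 0.0545 to 0.225), and Ccl20 was under the fold threshold without HEC tumour library 2 (log2 fold change -0.95).

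The higher members included Ackr3, at 1756, 1613 and 1829 normalised counts in HEC tumour against 243, 311 and 258 in BEC tumour. This 6.39-fold difference (log2 fold change 2.68 ± 0.13, adjusted p = 1.42e-90) was opposite in sign to that between normal HECs and BECs. Cxcl10 was 3.50-fold and Cxcl2 3.14-fold higher in HEC tumour. Ccr7, the receptor for CCL19 and CCL21, was 90.0, 70.1 and 43.2 normalised counts in HEC tumour and 20.4, 27.1 and 16.6 in BEC tumour, 3.17-fold higher (log2 fold change 1.67 ± 0.56, adjusted p = 0.00628). Cxcl3, Cxcl11 and Cxcl15 were called on 12 fragments against 3, 9 against 1 and 27 against 0.

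Lymph node HECs with and without tumour were compared next. Against HEC normal, 2 of the 35 members tested were higher in HEC tumour (5.71%) and 3 were lower (8.57%). Over all genes the shares were 4.58% and 3.21%. The median log2 fold change was 0.046 over the members and 0.019 over all genes. Ackr3 rose from 884, 638 and 755 to 1756, 1613 and 1829 normalised counts, 2.28-fold (log2 fold change 1.19 ± 0.13, adjusted p = 1.34e-19). Ccr7 rose from 5.07, 16.3 and 22.9 to 90.0, 70.1 and 43.2, 4.58-fold (log2 fold change 2.19 ± 0.57, adjusted p = 0.000661). Both genes were higher in every HEC tumour library than in any HEC normal library. Cxcl16 and Cxcl5 fell 2.77-fold and 3.67-fold, to 13.9, 16.8 and 16.6 and to 0, 24.7 and 13.3 normalised counts. Under edgeR Cxcl5 was no longer called (adjusted p = 0.0606). Without HEC normal library 2, the library with little Chst4, Cxcl16 was no longer called (log2 fold change -0.78, adjusted p = 0.0863). Ccl3 was called lower although the groups overlapped, and lost the call without that library (adjusted p = 0.137) and under edgeR (adjusted p = 0.118). The abundant members moved by less than 2-fold: Ccl5 had a log2 fold change of -0.61 ± 0.10, Cxcl10 of -0.27 ± 0.06, Ccl2 of 0.48 ± 0.08 and Cxcl1 of 0.49 ± 0.07.

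The change with tumour was then compared between the cell types, as the log2 change in HECs less that in BECs. It was called positive for 8 members and negative for 8, beside 11.2% and 12.1% of all genes, with a median of -0.55 over the members and -0.0019 over all genes. The difference was largest relative to its error for Ackr3, at 6.54 ± 0.18 (adjusted p = 1.34e-283), which rose in HECs and fell in BECs. Cx3cl1 had a difference of 4.27 ± 0.24 (adjusted p = 4.11e-66) and Ccl7 of 2.26 ± 0.19 (adjusted p = 4.58e-31). Both fell in BECs and had log2 fold changes of 0.40 ± 0.18 and 0.83 ± 0.14 in HECs. Cxcl12 and Cxcl1 had differences of 1.31 ± 0.24 and 1.24 ± 0.11. Negative values belonged to Ccl6, Ccl4, Cxcr4, Ccr1, Ccl9, Ccl3, Ccl5 and Cxcl10. Of these, Ccl5 (-2.05 ± 0.14) and Cxcl10 (-1.10 ± 0.09) were abundant in all 4 groups. Of the 8 myeloid marker genes, 6 were also negative in this comparison, as were all 5 epithelial genes (median -4.83) and all 3 pan-leukocyte and T cell genes tested (median -9.06). Their part was not tested.

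**Figure D3:**
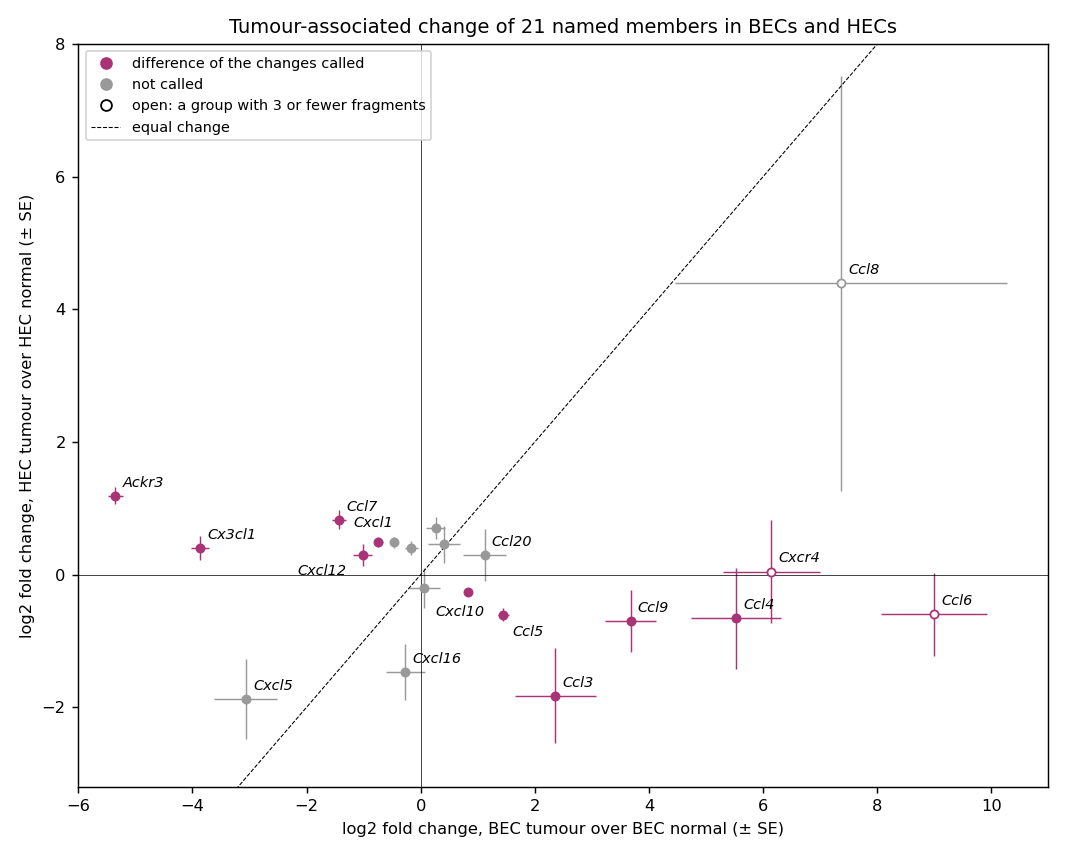
Log2 fold change with tumour in BECs (x axis) against that in HECs (y axis) for the 21 members with a group mean of at least 100, with bars of 1 SE; the dashed line marks equal change, purple points passed the test of the difference, and open points have a group with at most 3 fragments. Ackr3 lies at -5.35 in BECs and 1.19 in HECs, and Ccl4, Ccl9 and Ccl3 lie to the right at 5.53, 3.68 and 2.35.

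Many members lie next to each other in the genome, and neighbours often differed. At chr11:83525778-83664683 (GRCm38), Ccl5, Ccl9, Ccl6, Ccl3 and Ccl4 lie within 138.9 kb, and all 5 were called higher in BEC tumour than in BEC normal. Between normal HECs and BECs, 3 of them (Ccl5, Ccl6 and Ccl4) were higher and the other two were not called. At chr11:82035571-82305690, Ccl2 and Ccl7 lie before Ccl11, Ccl12, Ccl8 and Ccl1. There Ccl7 fell and Ccl8 rose in BEC tumour, and Ccl2 had a log2 fold change of -0.47 ± 0.08. The 7 CXC genes at chr5:90759360-90905938 split in a similar way: Cxcl5 and Cxcl3 fell in BEC tumour, while Cxcl1 (-0.74 ± 0.07), Cxcl2 (-0.17 ± 0.11) and Pf4 (0.06 ± 0.27) did not pass. The 3 CXCR3 ligand genes share chr5:92321347-92365485, where Cxcl9 rose, Cxcl11 fell and Cxcl10 had a log2 fold change of 0.83 ± 0.06. Cxcl2 and Cxcl3 shared 4.57% and 2.78% of their windows with each other.

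**Figure D4:**
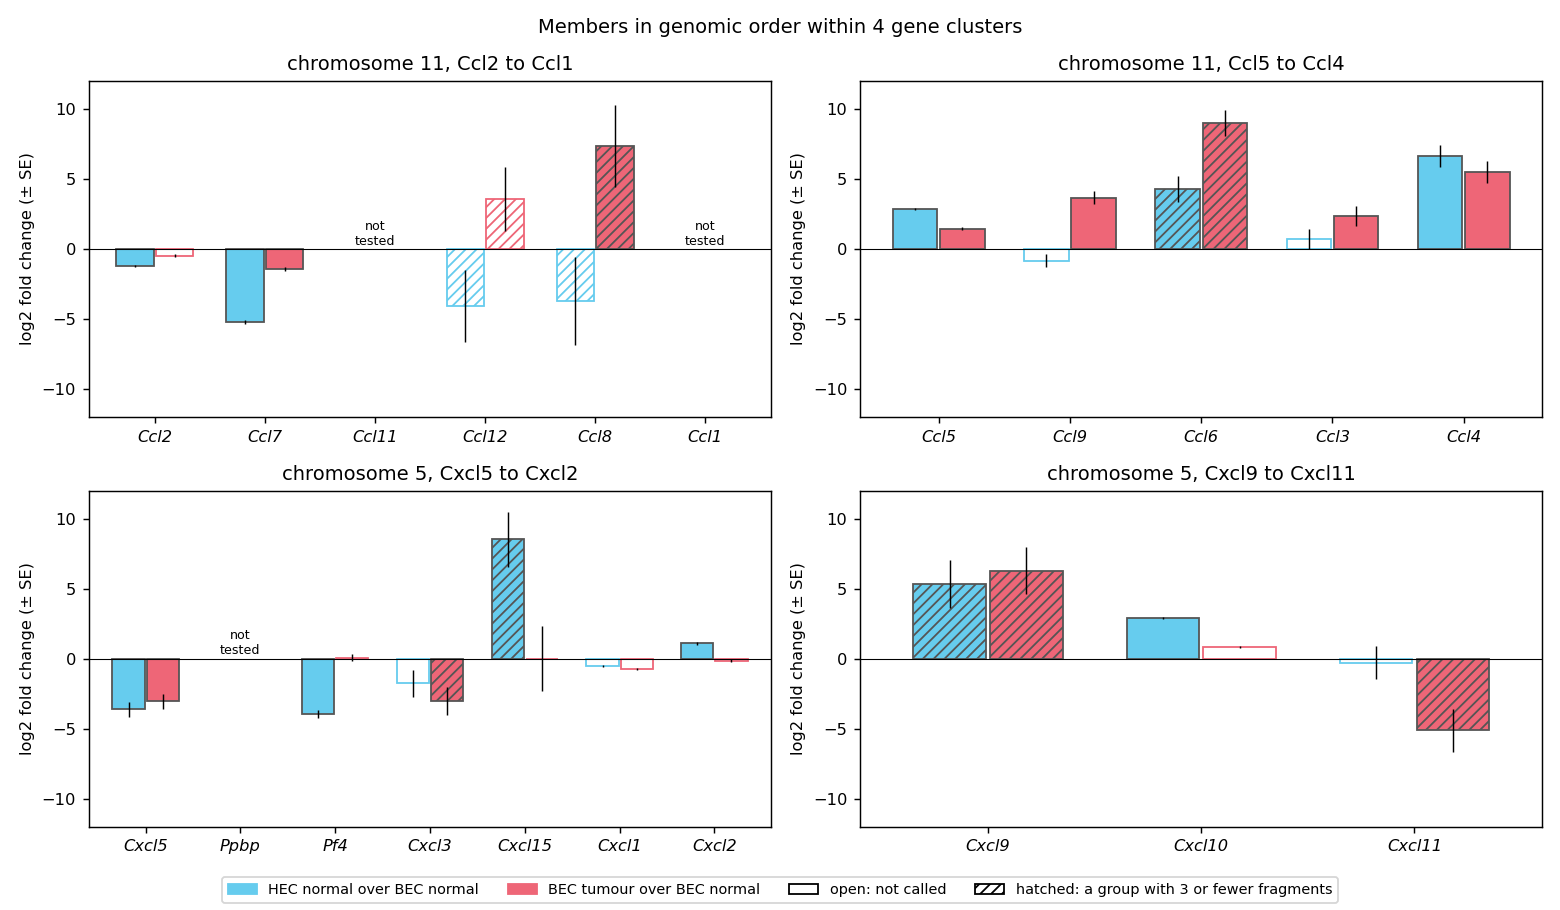
Log2 fold changes with bars of 1 SE for members of 4 gene clusters in genomic order, HEC normal over BEC normal in blue and BEC tumour over BEC normal in red; filled bars were called, open bars were not, and hatched bars have a group with at most 3 fragments. The comparisons shown share the BEC normal libraries; in BEC tumour all 5 genes of the Ccl5 to Ccl4 cluster are above 0.

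A list of 41 genes for chemokine signalling and presentation (G protein subunits, receptor kinases, arrestins, heparan sulphate enzymes and core proteins) was examined in the same fits, and 40 were tested in endothelial cells. HEC normal had 2 higher and 7 lower than BEC normal, beside 17.1% and 15.1% of all genes and with a list median of -0.44, with Gpc1, a heparan sulphate core protein, at a log2 fold change of -10.05 ± 0.41. The sulphotransferase Hs6st1 and the heparan sulphate polymerase subunit Ext1 had log2 fold changes of -1.98 ± 0.06 and -1.50 ± 0.07. BEC tumour had 4 higher and 6 lower than BEC normal (12.4% and 10.8% of all genes; list median -0.24), with Gpc1 at -2.66 ± 0.19 and the syndecan Sdc2 at -1.05 ± 0.08. HEC tumour had 1 higher and 11 lower than BEC tumour (11.2% and 10.7% of all genes; list median -0.37). It had 2 higher and 3 lower than HEC normal (4.58% and 3.21%; list median -0.079), where the heparan sulphate enzyme Hs3st1 rose by 2.71 ± 0.46 on the log2 scale. Pik3r5 and Dock2 were among the lower genes, at -1.165 ± 0.16 and -6.42 ± 1.29. The change with tumour differed between the cell types for 8 of the 40, 4 in each direction (11.2% and 12.1% of all genes; list median 0.030). By the Wald statistic Sdc2 (1.31 ± 0.11), Hs3st1 (6.82 ± 0.64) and Grk5 (1.15 ± 0.11) led.

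In EO771 cells, 8 of the 18 members tested were lower with 12-HETE and the other 10 were not called. Of the 70 lines, 26 were at 0 in every library, 26 had values but were not tested, and 18 were tested. DESeq2 called 8 lower and 0 higher, beside 7.79% and 2.38% of all 11602 genes. At an unadjusted p under 0.05 and any fold, 2 members were higher and 11 lower, a count given without the share over all genes. edgeR also called 0 higher and 8 lower. The median log2 fold change was -0.81 over the members and 0.0012 over all genes. The members summed to 1288 to 1609 TPM with vehicle and 558.5 to 582.7 TPM with 12-HETE. All 18 but Ccr7 and Ccr10 were ligand genes, of which Cxcl11 is annotated as a polymorphic pseudogene. Its RNA level therefore need not stand for a working chemokine.

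The CXCR3 ligands and Ccl5 were among the members that fell furthest. Cxcl10 was 3960, 3072 and 4853 normalised counts with vehicle and 71.9, 76.9 and 62.0 with 12-HETE, 56.4-fold lower (log2 fold change -5.82 ± 0.20, adjusted p = 2.06e-182). Cxcl11 was 277, 342 and 315 with vehicle and 1.03, 0 and 0 with 12-HETE, 937-fold lower on 946 counts against 1 (interval 168 to 37040). No 12-HETE library came near any vehicle library for either gene. Ccl5 fell from 225, 476 and 271 to 3.08, 5.91 and 4.92 normalised counts, 69.6-fold (log2 fold change -6.12 ± 0.49, adjusted p = 4.14e-34). Ccl20 fell from 199, 178 and 191 to 6.16, 4.93 and 10.8, 25.9-fold (log2 fold change -4.69 ± 0.37, adjusted p = 1.18e-35). Ccl2 fell 5.46-fold, from 1855, 1857 and 2418 to 377, 440 and 306 normalised counts. Among 6 CXCR2 ligands, Cxcl2 (7.16-fold) and Cxcl1 (4.57-fold) fell and the other 4 did not pass. These were Cxcl3 (log2 fold change -0.61 ± 0.18), Cxcl5 (-0.71 ± 0.28), Cxcl15 (0.41 ± 0.17) and Ppbp (0.53 ± 0.14). Ppbp was 863, 1238 and 1055 normalised counts with vehicle and 1489, 1512 and 1555 with 12-HETE, and at 259.5 ± 4.76 TPM it was the most abundant member with 12-HETE. Of the membrane-bound chemokines, Cxcl16 fell 2.47-fold (adjusted p = 6.68e-55) and Cx3cl1 had a log2 fold change of 0.04 ± 0.11. Ccl25 (0.07 ± 0.16) and Ccl27a (-0.90 ± 0.27), of which the line tested is 1 of 3 for that symbol, were not called. Summed epithelial markers were 3051 to 3977 CPM with vehicle and 2042 to 2092 with 12-HETE, and fibroblast markers 390.0 to 613.3 and 997.7 to 1037. Their part was not tested.

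**Figure D5:**
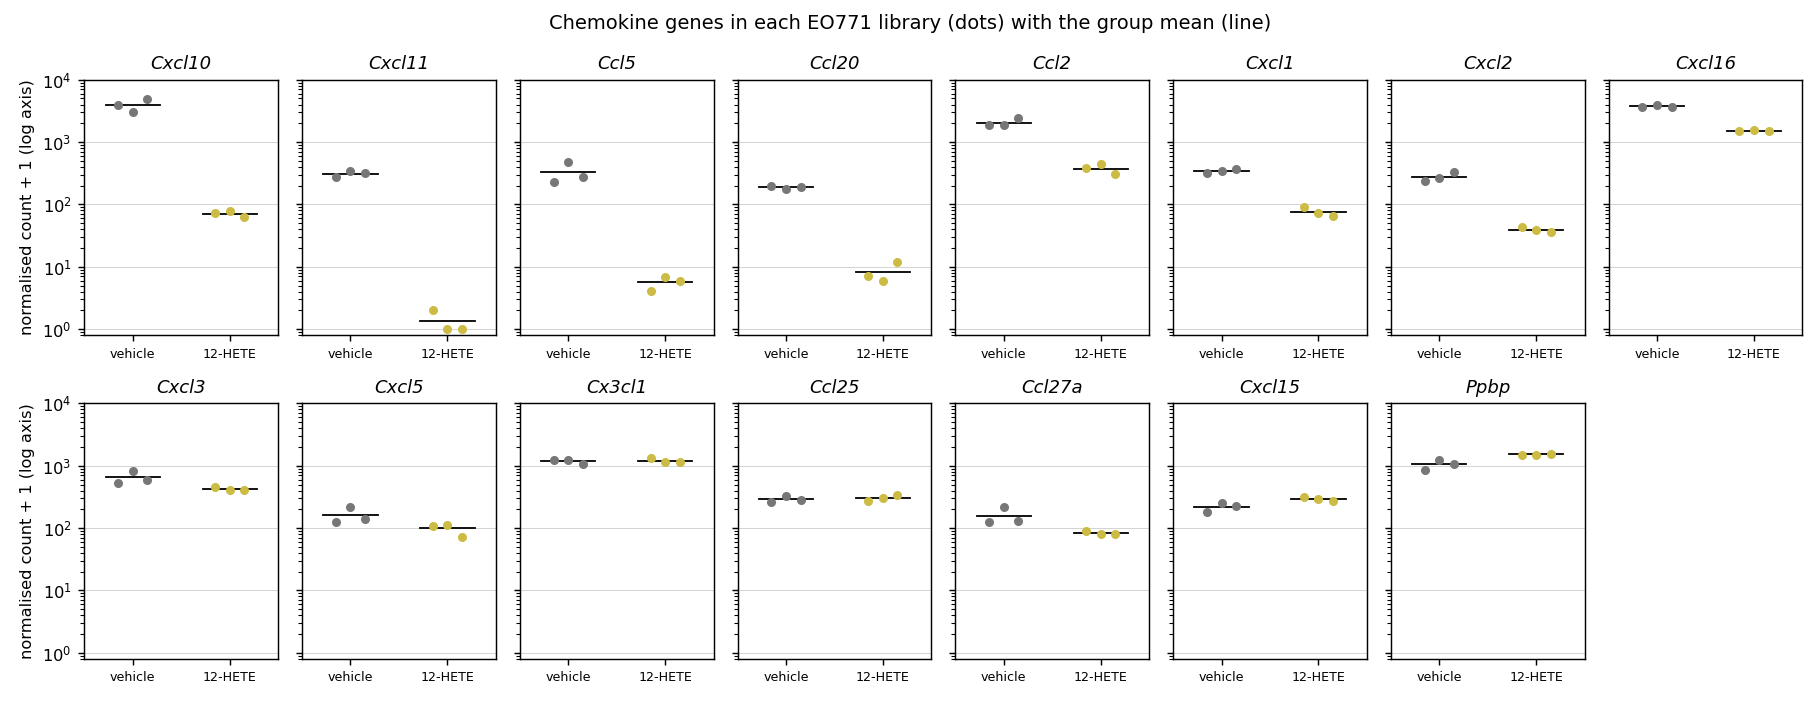
Normalised counts plus 1 on a log axis for the 15 members with a group mean of at least 100 in EO771 cells, with dots for the 3 libraries of each treatment and lines for means. Cxcl10, Cxcl11, Ccl5 and Ccl20 are well separated between vehicle and 12-HETE, whereas Cx3cl1 and Ccl25 overlap.

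Among the signalling and presentation genes, 31 were tested in EO771 cells, of which 1 rose and 2 fell, beside 2.38% and 7.79% of all genes, with a list median of 0.024. Ccrl2, which binds chemerin and presents it without signalling, fell by 4.09 ± 0.31 on the log2 scale. The syndecan Sdc4 fell by 1.03 ± 0.15, and the atypical chemokine receptor gene Gpr182 had a log2 fold change of 1.49 ± 0.45.

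The promoters of the members that fell are shown because those genes moved together. RefSeq (GRCm38.p6) promoter windows of 300 bases were at hand for 48 of the 66 symbols and for 4 of the 8 that fell, Ccl20, Cxcl1, Cxcl10 and Cxcl2. The other members that fell were Ccl2, Ccl5, Cxcl11 and Cxcl16. Below are the 250 bases before each start, 5′ to 3′ on the gene's strand, with matches in capitals to the NF-kB consensus or, in Cxcl10 at -213 to -204 from the start, to the interferon-stimulated response element, searched as GAAANNGAAA. Both motifs were searched on both strands. The windows lie at chr1:83116516-83116765 (plus strand), chr5:90890995-90891244 (plus), chr5:92348890-92349139 (minus) and chr5:90903649-90903898 (plus).
Ccl20: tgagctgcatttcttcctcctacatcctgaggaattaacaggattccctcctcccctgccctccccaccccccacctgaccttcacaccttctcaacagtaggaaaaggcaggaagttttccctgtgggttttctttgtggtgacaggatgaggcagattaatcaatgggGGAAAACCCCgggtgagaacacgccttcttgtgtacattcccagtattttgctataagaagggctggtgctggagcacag
Cxcl1: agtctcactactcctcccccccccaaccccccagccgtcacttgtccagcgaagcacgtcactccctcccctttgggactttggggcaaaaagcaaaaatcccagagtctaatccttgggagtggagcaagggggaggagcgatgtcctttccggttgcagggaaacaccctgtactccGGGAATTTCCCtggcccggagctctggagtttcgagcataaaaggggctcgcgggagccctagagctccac
Cxcl10: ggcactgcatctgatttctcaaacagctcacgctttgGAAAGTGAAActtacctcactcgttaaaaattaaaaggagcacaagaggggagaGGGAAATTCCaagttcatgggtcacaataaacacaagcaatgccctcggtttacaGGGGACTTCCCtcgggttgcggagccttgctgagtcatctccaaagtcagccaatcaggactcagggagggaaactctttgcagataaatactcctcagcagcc
Cxcl2: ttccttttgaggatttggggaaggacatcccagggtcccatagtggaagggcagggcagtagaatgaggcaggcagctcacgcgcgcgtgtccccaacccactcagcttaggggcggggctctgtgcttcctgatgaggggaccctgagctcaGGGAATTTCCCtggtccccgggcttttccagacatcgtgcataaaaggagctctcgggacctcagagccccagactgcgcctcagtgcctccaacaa

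The NF-kB consensus matched in 4 of these 4 windows, and in 2 of the 7 windows of the other tested members, Ccl27a and Cxcl3. It matched 8.46% of all 32851 windows and 12 of the 48 members. The Cxcl1 and Cxcl2 matches lie at -71 to -61 and -97 to -87 and hold the same letters. The interferon-stimulated response element matched 1 of the 4 windows, 3 of the 48 members and 3.44% of all windows. A match is a run of letters and was not tested for binding.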

How the data were processed

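RNA-seq gene tables of 18 mouse libraries (6 groups of 3, grouped by the labels) were analysed. The authors aligned reads with STAR to GRCm38 and counted fragments with featureCounts, per the methods. Whether counting used strand is not given in the sources used here, and the methods and the labels name different library kits. The deposited endothelial values were treated as estimated counts, because whole numbers in steps of about 3.73 are not single fragments. The EO771 table holds the deposited raw counts by symbol. Lines with a mean of at least 10 were tested (18511 endothelial, 11602 EO771 genes) with DESeq2 1.42.0 in R 4.3.3, by two-sided Wald tests with Benjamini-Hochberg adjustment over all genes tested, after median-of-ratios scaling. All 12 endothelial libraries shared one fit with group as the only term, and the 6 EO771 libraries another. A call needed an adjusted p under 0.05 and a fold over 2. The fit was tested on simulated data. Members without a call or a group mean of 100 are given mainly as counts, and some values are not reported here. The family and the lists were chosen with earlier results of these data known. Members were named where a group mean reached 100 normalised counts, beside other called members, and up to 3 called signalling genes per comparison by the size of the Wald statistic. Folds against a group at 0 are bounds at 3 fragments per group, and those against 1 to 3 fragments carry exact 95% counting intervals. Bounds and intervals cover counting error only, because the reads carry no molecular identifiers. TPM used exon lengths of GENCODE gene models on GRCm38, and windows of 75 bases were compared between transcripts for shared reads. In EO771, same-numbered libraries deviated together (r = 0.13, 0.22 and 0.38), so the numbers may pair the libraries. The EO771 values above nevertheless come from the fit with group as the only term, which ignores such pairing. An alternative fit with the replicate block made the same number of calls, 8 lower and 0 higher. edgeR 4.0.16, TMM scaling, other filters and thresholds, values divided by the step, fits on 2 groups and leaving out each library were alternatives.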

Additional observations from a re-analysis of the deposited data

Results flagged for a closer look

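For 16 members the HEC and BEC libraries differed in how they changed with tumour, by the interaction term of the DESeq2 fit. The same term was called negative for 6 of 8 myeloid, 3 of 3 pan-leukocyte and T cell and 5 of 5 epithelial marker genes tested. The part of such cells was not tested. For BECs the change also spans fat pad and tumour tissue, which cannot be told apart from tumour state. Values are log2 changes in HECs less those in BECs. Positive values were found for Ackr3 (6.54), Cxcl11 (4.66), Cx3cl1 (4.27), Cxcl3 (4.20), Ccr7 (2.90), Ccl7 (2.26), Cxcl12 (1.31) and Cxcl1 (1.24). Negative values were found for Ccl6 (-9.60), Ccl4 (-6.19), Cxcr4 (-6.10), Ccr1 (-4.82), Ccl9 (-4.38), Ccl3 (-4.18), Ccl5 (-2.05) and Cxcl10 (-1.10). Cxcl11, Cxcl3, Ccl6, Ccr1 and Cxcr4 rest on a group with at most 3 fragments, so the size of their values is uncertain.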

How the results depend on the processing

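The 120 log2 fold changes of named members were recomputed under the alternatives, which gave 2257 values. Of these, 2148 kept direction and side of the threshold, 48 lost a call, 36 gained one and 0 called values changed sign. The other 25, from 12 of the fold changes, changed sign without being called under either setting. Counts of called members are given as higher then lower. They stand without the share over all genes, which also changes with the setting, so they show only how the members' calls moved. Testing against a log2 fold change of 1 gave 5 higher for HEC normal against BEC normal, 4 and 6 for HEC tumour against BEC tumour, 0 and 0 by DESeq2 for HEC tumour against HEC normal (8 and 5 at an unadjusted p under 0.05 against 0; 2 and 1 by edgeR), 6 and 4 for BEC tumour against BEC normal, and 3 higher for the difference in tumour change. Adjusted p alone gave 11 higher for HEC tumour against BEC tumour, 7 and 5 for HEC tumour against HEC normal and 2 higher in EO771. Dividing endothelial values by the step left 21 members tested and gave 3 higher for HEC tumour against BEC tumour, 1 higher for HEC tumour against HEC normal and 5 higher for the difference. edgeR gave 1 lower for HEC tumour against HEC normal.

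Leaving out each library in turn gave 7 to 9 and 8 to 9 for HEC normal against BEC normal, 5 to 7 and 9 to 16 for HEC tumour against BEC tumour (9 without BEC tumour library 2), 2 to 3 and 1 to 4 for HEC tumour against HEC normal (1 without HEC normal library 2), 7 to 12 and 6 to 8 for BEC tumour against BEC normal (7 without BEC tumour library 1), 6 to 9 and 7 to 9 for the difference, and 0 and 8 to 9 in EO771. The causes were not tested. Endothelial replicate numbers gave no clear pairing, with same-number r from -0.03 to 0.16. For HEC tumour against BEC tumour each library correlated best with its own number, at r = 0.029, 0.024 and 0.055, so pairing there stays unsettled. For the other comparisons not every library did. With the replicate block the counts were 8 and 9 for HEC normal against BEC normal, 7 and 12 for HEC tumour against BEC tumour, 2 and 3 for HEC tumour against HEC normal, 10 and 6 for BEC tumour against BEC normal, and 7 and 7 for the difference. Members with a few fragments per group limit what this depth can show.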

Other observations

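Several members too low to be tested were seen mainly in BEC tumour. Cxcl13, the B cell attractant, was 10.2, 9.31 and 16.6 normalised counts there and 0 in the other 9 endothelial libraries. Xcr1, a receptor of cross-presenting dendritic cells, was 24.1, 10.2 and 3.49 in BEC tumour. Ccl19 was 0, 4.23 and 21.8 in BEC tumour and 0 elsewhere. Cxcr2 was highest in HEC normal, at 15.2, 16.3 and 30.6. In EO771 cells, Ccl7 was 8.91, 15.3 and 12.3 normalised counts with vehicle and 1.03, 0 and 0 with 12-HETE. These values had no test.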
